A study of Mus musculus with 4 samples.

Results

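The CCR4-NOT complex genes examined here are Cnot1, Cnot2, Cnot3, Cnot4, Cnot6, Cnot6l, Cnot7, Cnot8, Cnot10 and Cnot11, 10 of the 46078 mouse gene identifiers in the count tables. They were chosen by name, because the mean Cnot2 value of small cells in N2B27 was lower than that of ungated cells in earlier results of the same data, which raised the question of whether the other genes of the complex shared it. The N2B27 values of Cnot2 are therefore those that selected the genes, and are given as a description. All 10 genes had a count in at least 1 kept cell, and 9 reached a mean of 20 normalized counts over all kept cells, whereas Cnot6l did not. Of these 9, Cnot6 reached it only through N2B27 small cells.

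CCR4-NOT is the main deadenylase of the cytoplasm: it shortens the poly(A) tail of mRNAs, which usually leads to their decapping and decay. CNOT1 is the scaffold on which the other subunits assemble. CNOT2 and CNOT3 bind its C-terminal end as the NOT module, CNOT7 or CNOT8 together with CNOT6 or CNOT6L form the catalytic module, and CNOT10 and CNOT11 bind its N-terminal end. In ES cells several of these subunits are known to be needed to maintain self-renewal.

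Wild-type E14 mouse ES cells were grown in 2i, which blocks MEK and GSK3 and so keeps them naive. Per the study's methods this medium was N2B27 with both inhibitors and leukemia inhibitory factor (LIF), and is called 2i here. They were sorted by forward and side scatter, either through a gate for small cells, meant to hold cells leaving mitosis and in G1, or without a gate. Both populations were plated on laminin for 6 h in 2i or in N2B27. Per the study's methods N2B27 lacks both the inhibitors and LIF, and allows exit from the naive state. Single cells were then sorted for Smart-seq2, a full-length method without molecular identifiers. The 4 groups were 2i small and 2i ungated cells followed by the small and ungated cells of N2B27, with 1 sample of 24 cells each and a single genotype throughout.

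Cells of a sample are not replicates of a condition, so no test between groups was made. The 95% intervals of ratios cover counting error only, with reads taken as independent, and not the spread between cells. Those of shares of cells cover the draw of cells within a sample, taken as independent. None of them covers differences between samples. After filtering, 12, 22, 20 and 21 cells were kept in the order above, 75 in all, with between 1364155 and 4844170 counts on genes per cell and median totals of 2582386 to 3331438 per group. The median share of counts on the ERCC spike-ins was 3.47% in the 2i small group and 2.45% in the N2B27 small group, against 1.28% and 1.14% in the ungated cells of the same medium. Fewer molecules per cell and a lower yield in small cells cannot be told apart from these counts. Medium coincided with plate and sequencing lane, and gate with the index rows of a plate, so these cannot be told apart either. Of 8 ES cell markers, 8 were at 10 counts or more in at least 50% of the cells of both 2i groups and 7 in both N2B27 groups, whereas the summed markers of primitive endoderm, trophoblast and fibroblasts had a median of 0 in every group. One kept 2i small cell had 15712 genes detected, and is called the gene-rich cell, and another had 40.9% of its counts on spike-ins. The 2i comparison is therefore also given without either cell.

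Since both pairs of catalytic subunits are paralogues, their coding sequences were compared first, to see whether reads could be assigned to the wrong member. The most similar 60-base windows of the coding exons are shown, on the sense strand of GRCm38, with the bases that differ in capitals.
Cnot7, exon 3, chr8:40500760-40500819, minus strand: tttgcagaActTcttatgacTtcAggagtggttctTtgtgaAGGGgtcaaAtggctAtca
Cnot8, exon 4, chr11:58113146-58113205, plus strand: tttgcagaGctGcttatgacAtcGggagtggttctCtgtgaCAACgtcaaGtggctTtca
Cnot6, exon 8, chr11:49682039-49682098, minus strand: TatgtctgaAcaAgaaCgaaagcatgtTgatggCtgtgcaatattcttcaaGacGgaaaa
Cnot6l, exon 8, chr5:96091584-96091643, minus strand: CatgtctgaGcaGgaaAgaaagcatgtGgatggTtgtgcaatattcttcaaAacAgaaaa
Even in these windows Cnot7 and Cnot8 differed at 11 bases and Cnot6 and Cnot6l at 8. The longest identical run within the coding sequence was 20 bases for either pair and 10 bases for Cnot2 and Cnot3. No 50-base window of any of the 10 genes occurred in another of them. Windows shared with other genes made up 13.5% of the Cnot3 windows, 7.82% of those of Cnot8 and 4.76% of those of Cnot1, mostly with a predicted gene each, and at most 2.76% in the other genes. Exons of Cnot3, Cnot2, Cnot7 and Cnot1 overlapped exons of neighbouring genes over 7.28%, 5.69%, 4.24% and 0.769% of their length, where the values of the 2 genes of a pair are uncertain.

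Transcript levels were compared between genes per kilobase of the transcript with the longest coding sequence, and between groups per cell (plot of values per cell). On that scale Cnot8 had the highest mean in every group, from 159 to 182 normalized counts per kb, and Cnot6 and Cnot6l had the lowest, at no more than 14.2 and 2.97. Cnot10 and Cnot2 followed Cnot8 in all groups. When the length of all annotated exons was used, Cnot8 was again first, at 126 to 145, and Cnot6l last in each group, but Cnot11 was above Cnot10 in 2i small cells and above Cnot2 in N2B27 small cells, where Cnot6 was above Cnot1 and Cnot4. In the order by the transcript with the longest coding sequence, neighbours had overlapping interquartile ranges over cells in every group. The exception was Cnot4 and Cnot6 in N2B27 ungated cells. Of the 750 values formed by 10 genes in 75 cells, 193 were 0, 110 lay between 1 and 9 counts and 447 were at 10 counts or more. A cell was therefore taken to hold a transcript clearly when it had at least 10 counts, a limit chosen after the counts were seen.

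**Figure D1:**
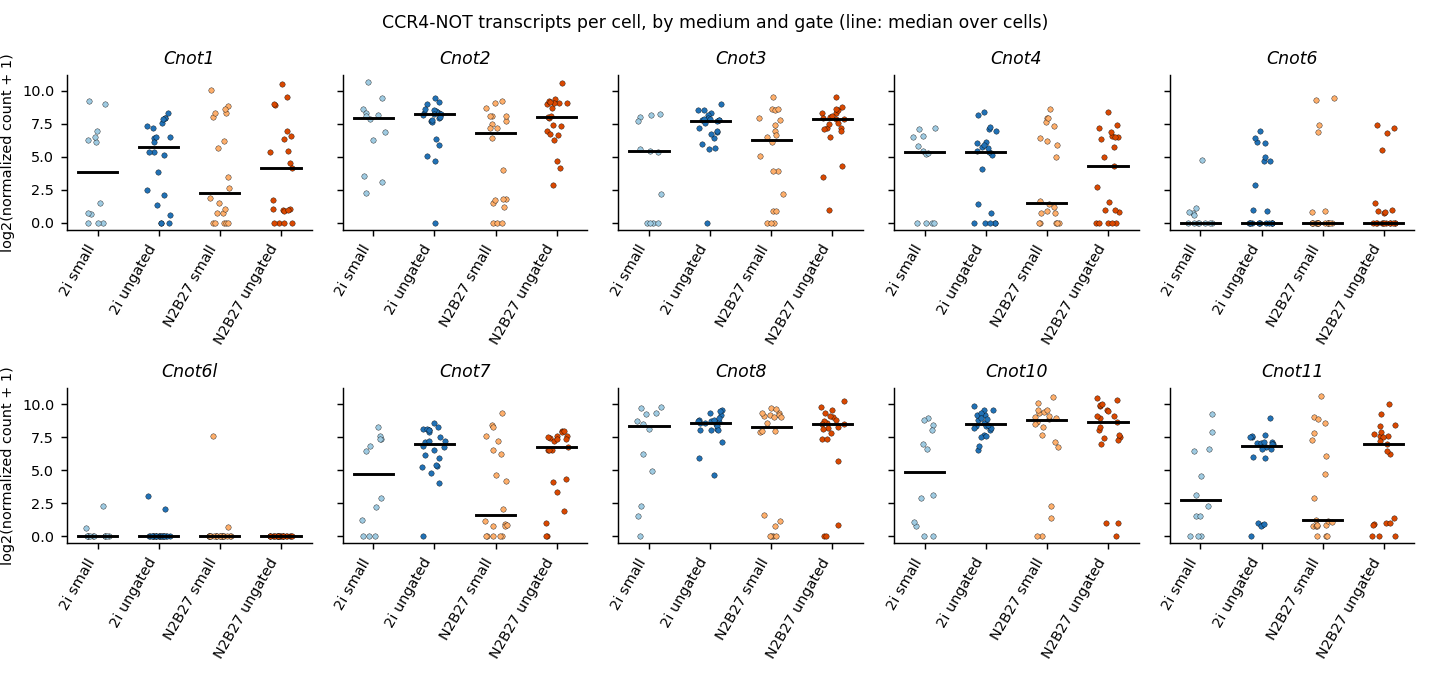
Normalized counts of the 10 CCR4-NOT genes in each kept cell, on a log2 scale after adding 1 (y axis), by group (x axis); points are cells and lines are medians over cells. Cnot2 is above 0 in each of the 21 N2B27 ungated cells, while N2B27 small cells split into 12 with at least 10 counts and 8 below; Cnot6 and Cnot6l are at 0 in most cells of every group.

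Cnot1, the scaffold, was detected unevenly. Its mean was 147 normalized counts in N2B27 small cells (lowest 0, median 3.84, highest 1078) and 170 in N2B27 ungated cells (0, 17.2 and 1419), a log2 ratio of means of -0.21 that ranged from -1.11 to 1.94 over 16 alternative settings and was below 0 in 11. In 2i the means were 122 in small cells (0, 35.6 and 598) and 90.9 in ungated cells (0, 55.05 and 316), a log2 ratio of 0.42 that was below 0 in 4 of 16 alternative settings. The groups overlapped over almost their whole range, and in 2i small cells 1 cell held 48.7% of the counts of the gene. At least 10 counts were found in 9 of 20 and 11 of 21 cells in N2B27, and in 6 of 12 and 15 of 22 cells in 2i, small before ungated.

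Cnot2, a subunit of the NOT module, had a mean of 158 normalized counts in N2B27 small cells (lowest 0, median 115, highest 585) and of 352 in N2B27 ungated cells (6.39, 252 and 1500). In 2i the mean was 337 in small cells (3.76, 245 and 1651) and 276.5 in ungated cells (0, 293 and 687). N2B27 small cells thus had the lowest mean and the lowest median of the 4 groups, although the ranges overlapped. The log2 ratio of small to ungated cells was -1.16 in N2B27 (counting interval -1.21 to -1.10, from 4217 and 8979 counts) and 0.28 in 2i, where 6 of 16 alternative settings gave a value below 0. Between media it was -1.09 in small cells and 0.35 in ungated cells.

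The lower Cnot2 mean went together with more cells in which the gene was nearly undetected. At least 10 counts were found in 12 of 20 N2B27 small cells (60%, exact binomial interval 36.05% to 80.9%) and in 20 of 21 N2B27 ungated cells (95.2%, 76.2% to 99.9%), a difference of -35.2 percentage points (Newcombe interval -56.9 to -9.76). These intervals describe the cells of 1 sample each, and the values are those that selected the genes. In 2i the corresponding cells were 10 of 12 and 21 of 22, a difference of -12.1 points (-40.5 to 8.88). When only cells with at least 10 counts were averaged, the log2 ratio in N2B27 was -0.50, from means of 262 and 369.5. After each cell was thinned to one common number of counts, which left out 2 N2B27 small cells, 12 of 18 small and 20 of 21 ungated cells had at least 10.

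Phase differed between the gates, and the direction of the Cnot2 difference was not the same in each phase (plot by assigned phase). The cyclone classifier placed 6, 11 and 3 N2B27 small cells in G1, S and G2/M, and 2, 4 and 15 N2B27 ungated cells. Within S phase the mean of Cnot2 was higher in small cells, 167 against 91.4 normalized counts (log2 ratio 0.86, 11 and 4 cells), the opposite of the direction over all cells. The median in S was nevertheless lower in small cells, 14.8 against 102, and 6 of 11 small and 3 of 4 ungated S cells had at least 10 counts. In G2/M the log2 ratio was -0.41 (3 and 15 cells) and in G1 it was -3.22 (6 and 2 cells), where 1 of the 2 ungated cells stood at 1500. In 2i, S was the only phase with several cells of both gates, and the log2 ratio there was -0.15 (5 and 7 cells). By index row, the means were 186 and 122.5 in N2B27 small cells and 338 and 368 in N2B27 ungated cells. The rows are parts of 1 sample and lie within a gate, so they cannot repeat the difference or separate row from gate. The part of phase in the Cnot2 difference was not tested.

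**Figure D2:**
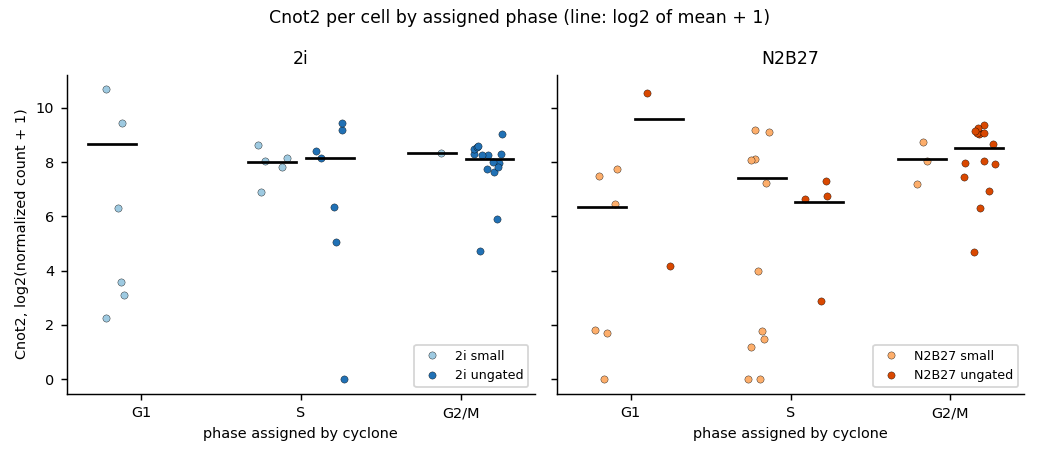
Cnot2 in each kept cell, as log2 of the normalized count plus 1 (y axis), by assigned phase (x axis), for 2i (left) and N2B27 (right); points are cells and lines are the log2 of the mean plus 1. In N2B27 the mean of small cells lies below that of ungated cells in G1 and G2/M and above it in S, where the means are 167 and 91.4.

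Cnot3, the partner of Cnot2 in the NOT module, had lower means in small cells in both media. They were 147 (lowest 0, median 78.6, highest 716) against 229 (0.977, 228 and 718) in N2B27, a log2 ratio of -0.64. In 2i they were 98.5 (0, 42.3 and 296) against 197 (0, 213 and 496), a log2 ratio of -0.99. Both ratios were below 0 in all 16 alternative settings. As for Cnot2, the number of cells with at least 10 counts was lower in the small gate, with 14 of 20 against 20 of 21 in N2B27, a difference of -25.2 points (-47.5 to -1.58), and 7 of 12 against 21 of 22 in 2i. Unlike Cnot2, its ratio was below 0 in 2i and in S phase of N2B27 too (-0.52). Between media the ratio was 0.57 in small cells and 0.22 in ungated cells.

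Of the deadenylases related to CAF1, Cnot8 had the higher level per kilobase and had similar means in the 4 groups. They were 340 (lowest 0, median 319, highest 853) in 2i small, 382 (23.4, 378 and 743) in 2i ungated, 333 (0, 310.5 and 813) in N2B27 small and 376 (0, 356 and 1170) in N2B27 ungated cells. The log2 ratio of small to ungated cells was -0.18 in N2B27 and -0.17 in 2i. Over the alternative settings these ranged from -1.36 to 0.13 and from -1.78 to 1.15, the lowest values being those of means of log2 values. The value of 1.15 in 2i, with spike-in size factors, became -1.04 without the gene-rich 2i small cell. Between media in small cells the ratio of -0.03 became -1.81 with spike-in size factors, and 0.38 when that cell was left out too. Its share of cells with at least 10 counts was nonetheless lower in small cells, 13 of 20 against 18 of 21 in N2B27 and 8 of 12 against 22 of 22 in 2i.

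Cnot7, the paralogue of Cnot8, had means of 85.9 (0, 45.8 and 312) in 2i small, 145 (0, 125 and 379) in 2i ungated, 91.7 (0, 2.16 and 644) in N2B27 small and 112 (0, 106 and 249) in N2B27 ungated cells. The log2 ratio of small to ungated cells was -0.29 in N2B27 and -0.75 in 2i. The N2B27 ratio was below 0 in all 16 alternative settings and became -1.53 when no cell was left out and -1.51 with fixed limits on cells. The 2i ratio became 4.51 when no cell was left out, and with spike-in size factors it was 0.85, or -1.35 without the gene-rich 2i small cell. In N2B27 small cells the mean rested on few cells, since 9 of 20 had at least 10 counts against 16 of 21 ungated cells (-31.2 points, -54.5 to -1.44), and the median was far below the mean.

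The CCR4-type deadenylases were barely detected. Cnot6 reached 10 counts in 1 of 12, 7 of 22, 4 of 20 and 4 of 21 cells, of 2i small, 2i ungated and then N2B27 small and ungated cells, and its median was 0 in each group. Its means were 2.46, 19.3, 81.3 and 22.4 and its highest values 26.5, 120, 708 and 166. It reached the mean of 20 over all kept cells only through N2B27 small cells. Its place among genes at that mean with high ratios for those cells thus follows in part from the limit. The ratio of small to ungated cells was 1.82 in N2B27 and -2.55 in 2i, each resting on a handful of cells, and the N2B27 ratio became -0.20 with spike-in size factors. The 2i ratio became 1.59 when no cell was left out. The gene-rich 2i small cell was the 1 cell with at least 10 counts there, and without it the ratio was -3.98. With spike-in size factors the ratio was 1.43 with that cell and -4.51 without it. Cnot6l had 11, 11, 264 and 0 counts in the same order, and 99.6% of the 264 counts lay in 1 N2B27 small cell with 187 normalized counts. Against a floor of 3 counts over the N2B27 ungated cells its mean was at least 74.0-fold higher in N2B27 small cells, a value set by that cell.

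Cnot10 and Cnot11 form the N-terminal module. Cnot10 had a mean of 405 normalized counts (lowest 89.5, median 353, highest 906) in 2i ungated, 444.5 (0, 434 and 1479) in N2B27 small and 495 (0, 398 and 1392) in N2B27 ungated cells. In 2i small cells it was lower, 148 (0, 51.05 and 495). The log2 ratio of small to ungated cells was accordingly -1.44 in 2i and -0.16 in N2B27, and the 2i value stayed below 0 in all 16 alternative settings, while the N2B27 value ranged from -0.95 in S phase to 1.37 when no cell was left out. In 2i, 7 of 12 small and 22 of 22 ungated cells had at least 10 counts, a difference of -41.7 points (-68.05 to -14.8), while in N2B27 it was 16 of 20 and 18 of 21 (-5.71 points, -29.2 to 17.9). Between small cells of the 2 media the ratio was 1.58, and with spike-in size factors it was -0.26, or 1.73 without the gene-rich 2i small cell.

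Cnot11 had means of 87.6 (0, 5.75 and 598) in 2i small, 116 (0, 114.5 and 478) in 2i ungated, 172 (0, 1.32 and 1589) in N2B27 small and 178 (0, 122 and 1017) in N2B27 ungated cells. The gates had nearly the same mean in N2B27 (log2 ratio -0.05), but only 8 of 20 small cells had at least 10 counts against 13 of 21 ungated cells, so a few small cells with high values made up the mean. In 2i the ratio was -0.40, with 5 of 12 and 17 of 22 cells. Over the alternative settings the N2B27 ratio ranged from -1.39 to 0.59 and the 2i ratio from -2.03 to 1.25.

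Cnot4, an E3 ubiquitin ligase that in mammals is not a stable subunit, had means of 52.6 (0, 39.7 and 141) in 2i small, 67.3 (0, 40.7 and 326) in 2i ungated, 73.7 (0, 1.91 and 383) in N2B27 small and 58.6 (0, 18.6 and 338) in N2B27 ungated cells. Its ratio of small to ungated cells was 0.33 in N2B27 and -0.35 in 2i, ranging from -0.27 to 1.53 and from -1.80 to 1.33 over the alternative settings. Both ends of the 2i range were spike-in values, 1.33 with the gene-rich 2i small cell and -1.80 without it. At least 10 counts were found in 9 of 20 and 11 of 21 cells in N2B27 and in 8 of 12 and 15 of 22 cells in 2i.

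**Figure D3:**
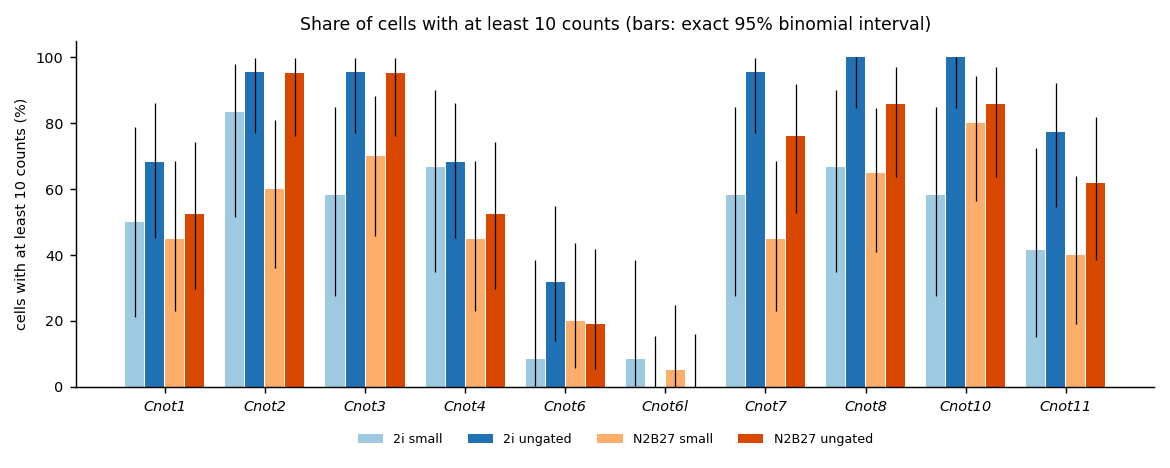
Share of kept cells with at least 10 counts of each CCR4-NOT gene (y axis, percent) in the 4 groups. Error bars are exact 95% binomial intervals and cover only the draw of cells within a sample. For Cnot2 the share is 60% in N2B27 small and 95.2% in N2B27 ungated cells; for Cnot10 the lowest share is that of 2i small cells.

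In N2B27 none of the other 9 genes had a ratio as low as that of Cnot2, the nearest being Cnot3 at -0.64, but this order depended on which cells were used. Cnot7 was at -1.51 beside -1.45 for Cnot2 with fixed limits on cells, and at -1.53 beside -1.54 when no cell was left out. In S phase Cnot11 was at -1.11 and Cnot10 at -0.95, beside 0.86 for Cnot2. The log2 ratio of small to ungated cells was below 0 for 7 of the 10 genes, beside 55.3% of the 8757 genes whose mean reached 20 normalized counts, and for 4 with scran and 3 with poscounts size factors, which moved the median of all genes to 0.05 and 0.30. It was at or below -1 for 1 gene, Cnot2 itself (17.2% of all genes), and at or above 1 for 2, Cnot6 and Cnot6l (11.9%). These shares are over genes whose mean reached 20, which Cnot6l did not. Without it 1 gene was at or above 1, Cnot6, which reached that mean only through N2B27 small cells. At or below -1 were 0 genes with scran, poscounts or pooled counts, and 2 without a filter or with fixed limits on cells. The median of all genes was 0.05, 0.30, -0.02, -0.19 and -0.18 in that order. In S phase 1 gene was at or below -1, Cnot11 in place of Cnot2, and the median of all genes was 0.18. With spike-in size factors 4 genes were there and with means of log2 values 5, but the median of all genes was then -0.82 and -0.76. The share of all genes at or below -1 is not given for these settings, so these counts cannot be read as particular to the complex. In the main setting the median over the 10 genes was -0.17 and that of all genes -0.12. Without Cnot2 the other 9 had a median of -0.16, with 6 below 0. The share of cells with at least 10 counts was lower by 20 points or more for 5 of the 10 genes, beside 33.1% of all genes, namely Cnot2, Cnot3, Cnot7, Cnot8 and Cnot11. It changed by a median of -14.05 points over the 10 genes and of -12.4 points over all genes.

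In 2i the same comparison gave lower values for more genes, in the CCR4-NOT set as in all genes. The ratio was below 0 for 8 of 10 genes (63.0% of all genes). Of these 8, 7 had a mean that reached 20, the limit for the shares of all genes. The ratio was at or below -1 for 2, Cnot6 and Cnot10 (28.8%), and at or above 1 for none (15.4%). The median was -0.38 over the 10 genes and -0.40 over all genes. With poscounts 5 genes were below 0 and with pooled counts 4, where the median of all genes was 0.22 and -0.15. With spike-in size factors it was 2 with the gene-rich 2i small cell and 10 without it, where that median was 0.77 and -1.39. The share of cells with at least 10 counts was lower by 20 points or more for 6 genes, beside 53.4% of all genes. The 2i small cells held the 2 cells that stood apart, and without the cell with the most genes the median over the 10 genes was -0.47, without the cell with the highest spike-in share it was -0.25, and 8 genes were again below 0 in either case.

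Between media, ratios of N2B27 to 2i cells were above 0 for most of the genes in small cells. They were below 0 for 2 of 10 genes, Cnot2 and Cnot8 (46.0% of all genes). They were at or below -1 for Cnot2 alone (18.4%) and at or above 1 for 3, Cnot6, Cnot6l and Cnot10 (23.3%). Of these 3, 2 had a mean that reached 20, the limit for the shares, Cnot6 only through N2B27 small cells. The median was 0.53 against 0.11 over all genes. With spike-in size factors 10 genes were below 0 with the gene-rich 2i small cell and 3 without it, where the median of all genes was -1.55 and 0.61. In ungated cells 4 of 10 were below 0 (51.9%), or 1 to 8 depending on the scaling and the summary over cells. Of the 4 in the main setting, 3 had a mean that reached 20. None reached -1 (9.89%) or 1 (7.61%), and the median was 0.21 against -0.03. The median of all genes was 0.40 where 1 was below 0 and -0.62 where 8 were. These comparisons share their samples with those between gates.

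**Figure D4:**
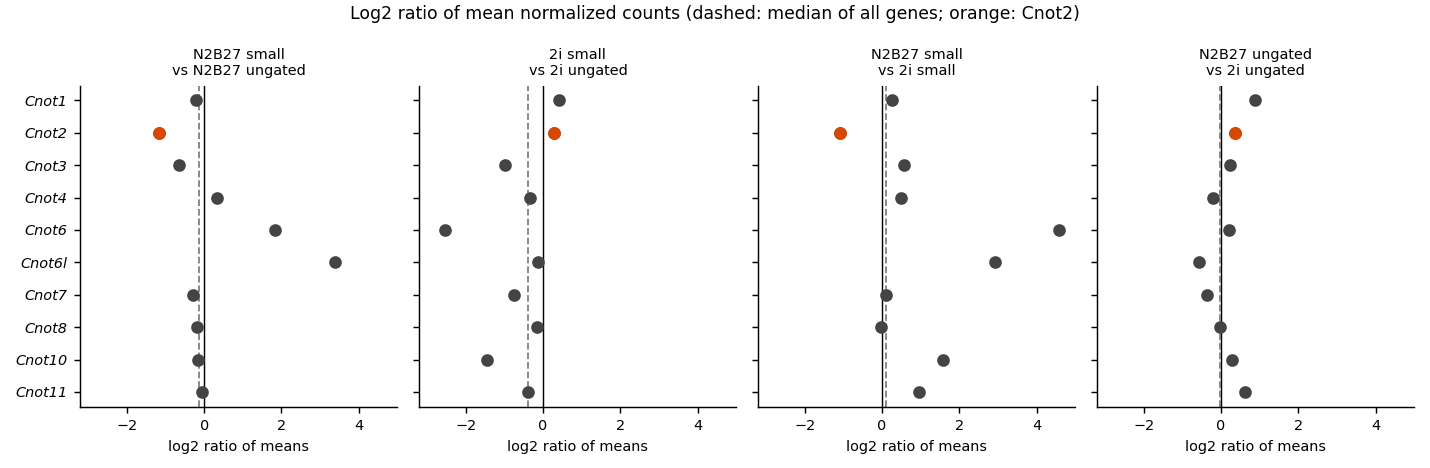
Log2 ratio of mean normalized counts, after adding 1 to both means (x axis), for the 10 CCR4-NOT genes (y axis) in 4 comparisons; the dashed line is the median of the 8757 genes whose mean reached 20, and Cnot2 is orange. Cnot2 is the lowest gene in the N2B27 comparison of gates, at -1.16, and lies at 0.28 in the 2i comparison; the Cnot6l ratios against N2B27 ungated cells are against 0 counts and depend on the added 1.

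The genes were also counted together in each cell. The number of the 10 genes with at least 10 counts had a median of 6 in 2i small, 7.5 in 2i ungated, 5 in N2B27 small and 6 in N2B27 ungated cells, and of 6, 7, 5 and 6 after thinning. The summed normalized count of the 10 genes had a mean of 1657 in N2B27 small and 1993 in N2B27 ungated cells, and without Cnot2 the means were 1500 and 1641. In 2i the sums were 1275 and 1699. Correlations over the 75 kept cells, which share libraries, depth and phase with the groups, were low: the 45 pairs of genes had Pearson coefficients of log2 values from -0.15 to 0.53, with a median of 0.10. The 9 pairs with Cnot2 ranged from -0.09 to 0.35, the highest with Cnot7, and also had a median of 0.10, against 0.14 for Cnot2 and 6632 other genes.

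The genes whose pattern over the 75 cells was most like that of Cnot2 were Zfp428, Uck2, Srm, Swap70 and Max, with coefficients of 0.58, 0.57, 0.54, 0.53 and 0.52. Srm encodes spermidine synthase, Uck2 a uridine-cytidine kinase and Max the partner of MYC. The N2B27 ratio of small to ungated cells was -0.86 for Zfp428, -0.98 for Uck2 and -1.28 for Max, but -0.27 for Srm and 0.15 for Swap70. These genes were picked over the same 75 cells, N2B27 cells among them, so their N2B27 ratios follow in part from the pick. In 2i the ratio was -0.82 for Zfp428, -0.70 for Uck2, -0.08 for Max, -0.25 for Srm and 0.62 for Swap70.

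Other genes of the mRNA decay pathway were taken from lists of 82 genes, of which 80 were found and 62 had a mean that reached 20. In N2B27, 24 of the 62 had a ratio of small to ungated cells below 0 (55.3% of all genes), 6 were at or below -1 (17.2%) and 17 at or above 1 (11.9%), with a median of 0.21 against -0.12 over all genes. In 2i, 2 of the 5 genes among the BTG/Tob family adaptors together with Cnot9, a further CCR4-NOT subunit, were below 0, with a median of 0.26. In N2B27 that list had 5 of 5 genes below 0, with a median of -0.46. Among these, Tob2 reached the mean of 20 only through N2B27 ungated cells, the group its ratio is taken against. Of the other genes of that list of 7, which did not reach the mean of 20, Btg3 had a ratio of 3.16 and Btg4 no count. Cnot9 itself had a ratio of -0.35, from means of 271 and 346, and of 0.26 in 2i. Deadenylases outside the complex had a median of 0.14 (3 of 8 below 0), RNA-binding proteins that recruit the complex 0.78 (4 of 12), decapping and 5′-to-3′ decay factors 0.60 (6 of 18), poly(A) binding and tailing factors 0.58 (1 of 6) and the RNA exosome with the SKI complex 0.14 (5 of 13). In 2i the 62 genes had a median of 0.22 against -0.40 over all genes, with 28 below 0 (63.0% of all genes). There the deadenylases outside the complex had a median of -1.04 (6 of 8 below 0) and the recruiting proteins -0.01 (6 of 12). Decapping and decay factors had 0.27 (8 of 18), poly(A) factors 0.61 (1 of 6) and the exosome with SKI 0.28 (5 of 13).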

How the data were processed

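Raw counts per gene and cell, as deposited by the authors, were read from 2 tables, 1 per medium, and columns were matched to samples through the authors' list of sequencing runs. Per the labels and the study's methods, the authors trimmed Smart-seq2 reads with Trim Galore 0.4.4, aligned them to mm10 (GRCm38) with GSNAP and counted them on Ensembl genes with HTSeq, which drops reads that overlap several genes. Of all counts, 27.6% named no gene and stayed out of totals. Symbols and exons came from GENCODE M21, a later release of the same build.

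Cells over 3 median absolute deviations below their plate's median in log counts or log genes, or above it in mitochondrial share, were left out with scater 1.30.1. Counts and genes had no upper limit. No doublet caller was run on these singly sorted cells. Size factors came from DESeq2 1.42.0, from the 1227 genes counted in every kept cell, and phases from cyclone in scran 1.30.0. R was 4.3.3 and Python 3.11.15, with numpy 2.4.6, scipy 1.17.1 and pandas 2.3.3. Group values are means of normalized counts, compared as log2 ratios after adding a pseudocount of 1, and the calculation was tested on simulated data. Counting intervals are from exact binomial limits on counts, and those of shares are Clopper-Pearson. With 1 sample per group, no p-value was computed, and the study's DESeq2 test over cells was not repeated. The precision is set by 12 to 22 cells per group more than by depth.

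The 10 genes named are the fixed members, with Cnot9, the 5 genes of highest correlation with Cnot2 and, among list genes whose mean reached 20, the 3 with the highest and the 3 with the lowest N2B27 ratio. Members and lists were chosen with earlier results of these data known. Alternatives covered the filter on cells, normalization, the summary over cells, thinning, phase, doubted cells and the pseudocount.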

Additional observations from a re-analysis of the deposited data

Results flagged for a closer look

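Cnot6, a CCR4-type deadenylase, had log2 ratios of small to ungated cells of opposite sign in the 2 media, 1.82 in N2B27 and -2.55 in 2i. The difference between these ratios was not tested, since each group is 1 sample. The values rested on 4 of 20 and 4 of 21 cells with at least 10 counts in N2B27, and on 1 of 12 and 7 of 22 in 2i.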

How the results depend on the processing

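With 1 sample per group no value has a replicate check, and no replicate could be left out. No paired analysis was possible because the groups compared hold 1 sample each and no value comes from a test. The Cnot2 ratio of N2B27 small to ungated cells was below 0 in 15 of 16 alternatives and at or below -1 in 12. It was -1.54 without a filter on cells, -1.45 with fixed limits, -1.01 with CPM and with thinned counts, -0.90 with scran, -0.72 with poscounts, -1.73 with spike-in size factors, also when leaving out the gene-richest cell of 2i small, -0.98 with pooled counts and -2.66 with means of log2 values. It was 0.86 in S phase cells alone. The median over the 10 genes in the N2B27 comparison of gates was -0.95 with spike-ins, with or without that cell, and -0.87 with means of log2 values. Those settings moved the median of all genes to -0.82 and -0.76, from -0.12. In the 2i comparison of gates it was 1.06 with spike-ins, -1.45 with spike-ins without that cell, an alternative added after the data were seen, and -1.57 with means of log2 values. The median of all genes was then 0.77, -1.39 and -1.38. Between media the median over the 10 genes was -1.49 in small cells with spike-ins, 0.83 with spike-ins without that cell, and -0.58 in ungated cells with means of log2 values. That of all genes was -1.55, 0.61 and -0.62.

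The number of genes below 0 was 4 with scran and 3 with poscounts between gates in N2B27. Between gates in 2i it was 5 with poscounts, 4 with pooled counts and 2 with spike-ins, or 10 without that cell. Between media in small cells it was 1 with poscounts, 10 with spike-ins, or 3 without that cell, 4 with pooled or thinned counts and 5 with means of log2 values. In ungated cells it was 1 with poscounts, 2 with pooled counts and 8 with means of log2 values. The low count between gates in 2i and the high count between media in small cells under spike-ins were thus carried by that cell. The cause of the other shifts was not tested. The median of all genes moved with these settings too. Between gates in N2B27 it was 0.05 with scran and 0.30 with poscounts. Below it were 6 and 5 of the 10 genes, against 6 in the main setting. Between gates in 2i it was 0.22 with poscounts, -0.15 with pooled counts, 0.77 with spike-ins and -1.39 without that cell. Below it were 6, 4, 3 and 5 genes, against 5 in the main setting. Between media in small cells it was 0.29 with poscounts, -1.55 with spike-ins and 0.61 without that cell. With pooled counts, thinned counts and means of log2 values it was 0.09, 0.14 and -0.15. Below it were 2, 5, 4, 4, 5 and 4 genes, against 3. In ungated cells it was 0.40 with poscounts, 0.02 with pooled counts and -0.62 with means of log2 values. Below it were 3, 2 and 4 genes, against 3.

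Among single genes, the Cnot6 ratio changed sign in N2B27 with spike-ins (-0.20, with or without that cell), in 2i without a filter (1.59), with fixed limits (1.04) and with spike-ins (1.43, or -4.51 without that cell), and between media in small cells with spike-ins (-1.10, or 4.84 without it). Between media in small cells Cnot10 became -0.26 and Cnot6l -0.29 with spike-ins, or 1.73 and 3.39 without that cell, and Cnot6l -0.02 without its highest cell.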

Other observations

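Outside the complex and among genes whose mean reached 20 normalized counts, the decay genes with the lowest N2B27 ratios of small to ungated cells were Tob2, an adaptor that binds the CAF1 deadenylases, at -3.56, the decapping scaffold Edc4 at -2.46 and Tnrc6c, a partner of Argonaute that recruits CCR4-NOT, at -2.43. Tob2 had means of 3.22 normalized counts in N2B27 small and 48.8 in N2B27 ungated cells, Edc4 of 7.46 and 45.4, and Tnrc6c of 9.10 and 53.3. With means of 17.8 in 2i small and 9.21 in 2i ungated cells, Tob2 reached the limit only through N2B27 ungated cells. Its low ratio against that group thus follows in part from the limit. The cells with at least 10 counts numbered 1 and 4 for Tob2, 2 and 7 for Edc4 and 2 and 6 for Tnrc6c. In 2i their ratios were 0.88, -0.23 and -1.62.

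Under the same limit, higher values in N2B27 small cells were found for Dnd1, an RNA-binding protein of germ cells, with means of 76.3 and 4.81 and a ratio of 3.73, on 5 and 2 cells with at least 10 counts. Cpeb1 (means 109 and 2.03, ratio 5.18) and Dcp1b (means 33.9 and 0) each rested on 1 small cell with at least 10 counts. With means of 4.74 in 2i small and 4.40 in 2i ungated cells, Cpeb1 reached the limit only through N2B27 small cells. Its high ratio thus follows in part from the limit. Dnd1 was lower in N2B27 than in 2i among ungated cells, with a ratio of -3.54 from means of 4.81 and 66.6.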
